A study of Mus musculus with 8 samples.

Results

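Collagen genes were followed in NMuMG cells, an epithelial cell line of mouse mammary gland, across the 4 conditions of an RNA-seq experiment. The genes were picked by a name pattern. It took every row of the deposited count table with the symbol *Col*, a number, *a* and a number, the collagen alpha chain genes. This gave 43 of 37310 genes. At least 1 read was counted in any library for 32 of them and none for 11. Of the 32, 13 had fewer than 10 counts over all libraries, 15 had counts in all 8 libraries, and 16 passed the filter on low counts that 13028 genes of the table passed. Fold changes and tests below are for these 16, and the others are given by their counts. The gene *Emid2*, which now carries a collagen name, does not match the pattern and had 0 counts.

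The libraries were 2 biological replicates each of control cells (genotype Control), control cells given 10 ng/ml TGFβ1 for 2 h, cells labelled KO, and KO cells given the same TGFβ1 treatment. All cells were NMuMG grown in serum with insulin, and the untreated libraries received no TGFβ1. Per the study's methods, KO cells carry a CRISPR-Cas9 deletion over the promoter and first exon of the long non-coding RNA gene *Lnc-Nr6a1*, taken through picked clones, and the number of clones behind the libraries is not given in the sources used here, so a difference between KO and control cells cannot be told apart from a difference between clones. Replicate libraries may therefore share a clone, and the p-values measure only the spread between these libraries.

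Totals ran from 4297832 counts in a KO library to 13574397 in a KO library with TGF-β, and the 4 treated libraries were all deeper than the 4 untreated ones. *Gm13507*, the table's row for *Lnc-Nr6a1*, had 3 and 14 counts in the control libraries, 25 and 35 in control cells with TGF-β, 11 and 7 in the libraries labelled KO, and 0 and 0 in KO cells with TGF-β. The untreated libraries labelled KO thus held as many of its reads as the controls. This row has few counts and spans exons outside the deletion, and it does not bear out their label, although other genes set these libraries apart from the controls, such as *Pcolce* at 250 and 233 CPM (counts scaled to the library total) against 101 and 90.8, beside 220 and 238 in KO cells with TGF-β. They are called the libraries labelled KO below, and every comparison that uses them (the response to TGF-β in cells labelled KO, the untreated genotypes, and the interaction) rests on that label. TGF-β treatment was visible in both genotypes: *Smad7*, *Skil* and *Snai1*, genes taken as a check of it, rose in control cells and in cells labelled KO. Of 10 epithelial markers, 6 or 7 were above a floor of 3 counts in each library, with *Krt8*, *Krt18* and *Cdh1* high, whereas *Epcam* had 2 counts over all libraries and *Cldn3* and *Cldn7* had 0.

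Collagens are secreted proteins whose alpha chains wind around each other into a helix. Only glycine is small enough for the centre of the helix, so it recurs at a fixed step along each chain, and the prolines and lysines between the glycines are hydroxylated in the endoplasmic reticulum before the chains fold and leave the cell. Fibrillar collagens form the fibrils of connective tissue, type IV collagen forms the sheet of the basement membrane under every epithelium, type VII anchors that sheet to the stroma, type VI forms beaded filaments beside it, and types XV and XVIII (the multiplexins) carry sugar chains and sit at the basement membrane zone. FACIT collagens attach to the surface of fibrils. TGF-β is a well-known inducer of matrix genes, mostly described in fibroblasts.

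The sequences that define the family are shown for the 6 collagen genes called in at least 1 comparison below, because they show how different the chains of one family are in this region. A script read the longest coding sequence of each gene in GENCODE vM1 (mouse build NCBIM37, mm9) and looked for runs of at least 5 units, each a glycine codon (GGN) and the 2 codons after it. All 43 genes held such a run, the longest being between 28 and 344 units. The first 12 units of the longest run of each gene are printed 5′ to 3′ on the coding strand, with the glycine codon that opens each unit in capitals:
*Col15a1*: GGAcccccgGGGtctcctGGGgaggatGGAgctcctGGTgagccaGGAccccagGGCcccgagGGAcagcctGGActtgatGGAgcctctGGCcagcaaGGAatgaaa
*Col18a1*: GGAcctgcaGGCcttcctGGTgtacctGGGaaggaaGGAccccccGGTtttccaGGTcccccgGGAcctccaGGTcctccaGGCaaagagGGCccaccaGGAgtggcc
*Col5a1*: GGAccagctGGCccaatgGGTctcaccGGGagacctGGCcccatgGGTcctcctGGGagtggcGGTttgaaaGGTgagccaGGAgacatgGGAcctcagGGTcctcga
*Col11a2*: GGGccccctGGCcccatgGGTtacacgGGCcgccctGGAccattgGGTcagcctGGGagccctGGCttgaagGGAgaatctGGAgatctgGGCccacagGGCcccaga
*Col7a1*: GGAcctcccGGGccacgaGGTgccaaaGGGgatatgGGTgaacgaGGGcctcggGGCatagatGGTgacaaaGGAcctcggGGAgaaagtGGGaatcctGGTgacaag
*Col6a1*: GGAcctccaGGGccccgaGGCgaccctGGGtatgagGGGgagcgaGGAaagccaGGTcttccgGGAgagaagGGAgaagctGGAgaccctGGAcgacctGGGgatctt

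These runs started at codon 629 of 1368 in *Col15a1*, codon 953 of 1775 in *Col18a1*, codon 559 of 1839 in *Col5a1*, codon 487 of 1737 in *Col11a2*, codon 2518 of 2945 in *Col7a1* and codon 256 of 1026 in *Col6a1*. The fibrillar chains *Col5a1* and *Col11a2* each held 1 long run of 338 units, the shape of a rigid fibril-forming helix. The multiplexins were broken into many short pieces, 11 runs of at most 30 units in *Col15a1* and 14 of at most 30 units in *Col18a1*. *Col7a1* held 20 runs, the longest of 75 units, and *Col6a1* held 3, the longest of 87 units. The repeats took 61.3% of the codons of *Col11a2*, 58.7% of *Col5a1*, 48.0% of *Col7a1*, 31.9% of *Col6a1*, 28.6% of *Col18a1* and 25.0% of *Col15a1*.

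**Figure D1:**
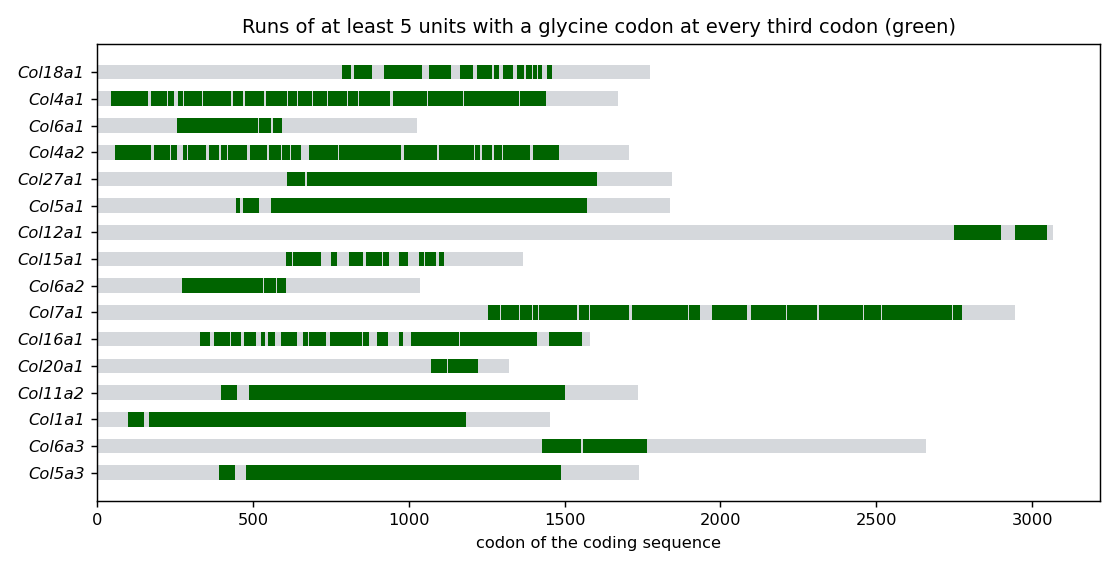
Coding sequences of the 16 tested collagen genes, drawn to scale in codons (horizontal axis) and ordered from top to bottom by level per kb of exon, with runs of at least 5 units of a glycine codon and 2 other codons in green and the rest in grey. The fibrillar chains *Col5a1* and *Col11a2* each hold a run of 338 units, whereas *Col15a1* and *Col18a1* are split into 11 and 14 short runs.

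In the edgeR fit reported below, 3 collagen genes passed as higher with TGF-β in either genotype: *Col15a1*, *Col7a1* and *Col5a1*. Others, such as *Col12a1* and *Col16a1*, lay higher without overlap in both genotypes but did not pass in that fit. The bases upstream of the start are shown for the 3 that passed. They are the 250 bases before the RefSeq start (build GRCm38.p6, plus strand for each), at chr4:47207762-47208011 for *Col15a1*, chr9:108953336-108953585 for *Col7a1* and chr2:27886175-27886424 for *Col5a1*. They were searched on both strands for CAGAC, the short Smad-binding element, TGACTCA, the AP-1 element, and GGGCGG, the core of an SP1 box, and matches are in capitals:
*Col15a1*: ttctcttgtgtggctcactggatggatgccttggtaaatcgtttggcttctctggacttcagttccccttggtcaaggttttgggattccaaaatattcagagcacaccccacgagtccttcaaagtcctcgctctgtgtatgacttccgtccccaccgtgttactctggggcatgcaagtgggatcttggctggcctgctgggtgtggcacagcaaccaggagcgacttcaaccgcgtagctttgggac
*Col7a1*: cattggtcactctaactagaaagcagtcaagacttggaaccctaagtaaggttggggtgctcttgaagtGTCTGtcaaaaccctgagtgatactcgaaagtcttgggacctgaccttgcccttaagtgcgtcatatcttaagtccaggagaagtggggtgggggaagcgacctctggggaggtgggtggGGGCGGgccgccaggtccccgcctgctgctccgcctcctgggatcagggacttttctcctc
*Col5a1*: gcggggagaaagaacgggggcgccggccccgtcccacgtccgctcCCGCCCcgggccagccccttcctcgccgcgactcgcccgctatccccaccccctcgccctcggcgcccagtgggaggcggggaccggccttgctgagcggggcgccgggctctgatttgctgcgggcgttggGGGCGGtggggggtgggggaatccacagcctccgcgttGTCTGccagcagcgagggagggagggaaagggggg

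No match to the 3 motifs was found in the *Col15a1* window. The *Col7a1* window held CAGAC on the reverse strand (GTCTG) at -181 and GGGCGG at -61, and the *Col5a1* window held GTCTG at -35 and an SP1 core at -205 and -73. Among the 32851 RefSeq windows of the same 250 bases, 42.2% held CAGAC on either strand, 32.7% GGGCGG and 4.46% TGACTCA, so such matches are common. Of the other called genes, *Col18a1* has 2 RefSeq starts, of which 1 window held GTCTG at -216 and the other 3 SP1 cores, *Col11a2* held 2 SP1 cores, and *Col6a1* held TGACTCA at -90. Windows were found for 35 of the 43 collagen genes and 14 of the 16 tested.

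Collagen messages made up between 0.0835% (95% Wilson interval 0.0817% to 0.0853%, counting error only) and 0.209% (0.207% to 0.212%) of the counts of a library. The share was lowest in a control library with TGF-β and highest in a KO library with TGF-β, and it was 0.108% and 0.103% in untreated control cells, 0.115% and 0.0835% in control cells with TGF-β, 0.123% and 0.137% in the libraries labelled KO and 0.160% and 0.209% in KO cells with TGF-β. All 4 libraries labelled KO lay above all 4 control libraries. Summed over all 8 libraries, the multiplexins took 40.1% of all collagen counts, the basement membrane chains 32.2% and fibrillar chains 11.1%. Beaded-filament chains took 7.95%, FACIT chains 7.52% and *Col7a1* 1.04%. These sums weigh the treated KO libraries most, which held 20380 and 28414 collagen counts against 8468 and 8025 in untreated control cells. Shares within a condition were not computed and may be ordered otherwise.

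Levels between genes are compared per length, per kb of exon, averaged over the 4 conditions. Levels are in CPM, each count scaled to the TMM-adjusted total of its library. *Col18a1* (ENSMUSG00000001435.8, chr10:76514923-76629293 of mm9, minus strand), whose C-terminal fragment is endostatin, led with 71.9 CPM per kb. *Col4a1* (ENSMUSG00000031502.9, chr8:11198423-11312826, minus strand) followed with 45.0 and its partner chain *Col4a2* (ENSMUSG00000031503.7, chr8:11312805-11449287, plus strand) with 18.5 CPM per kb, and both chains join in the common type IV helix. *Col6a1* (ENSMUSG00000001119.6, chr10:76171537-76188913, minus strand), a chain of type VI collagen, lay between them at 19.7 CPM per kb. The fifth was *Col27a1* (ENSMUSG00000045672.7, chr4:62875038-62996025, plus strand), a fibrillar chain known from cartilage, at 6.51 CPM per kb, or 11.1 when its longest transcript served as the length. *Col6a1* and *Col4a2* lay within the spread of their libraries of each other, as did *Col27a1*, *Col5a1* (5.62 CPM per kb) and *Col12a1* (5.54), so the order among them is not settled. The order of the last 3 also changed with the condition: *Col5a1* was the lowest of them in control cells (1.72 CPM per kb, against 4.59 for *Col27a1* and 3.15 for *Col12a1*) and the highest in KO cells with TGF-β (12.6, against 9.76 and 8.94).

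The collagens most abundant in connective tissue were almost silent. *Col1a1*, the main chain of bone and skin collagen, had 178 counts over all 8 libraries, its partner *Col1a2* had 21, *Col3a1* had 1 and *Col2a1* of cartilage had 1. *Col17a1*, the transmembrane collagen of hemidesmosomes in stratified epithelia, had 8 counts in 4 libraries. *Col4a3*, *Col4a4* and *Col4a5*, the type IV chains of kidney and other specialised membranes, had 3, 1 and 1 counts, and *Col4a6* had 0. *Col5a2*, the usual partner chain of *Col5a1*, had 0 counts in every library, which over these totals allows at most the floor of 3 counts. The other 9 chains at 0 counts were *Col6a4*, *Col6a6*, *Col9a2*, *Col10a1*, *Col13a1*, *Col19a1*, *Col24a1*, *Col25a1* and *Col28a1*.

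**Figure D2:**
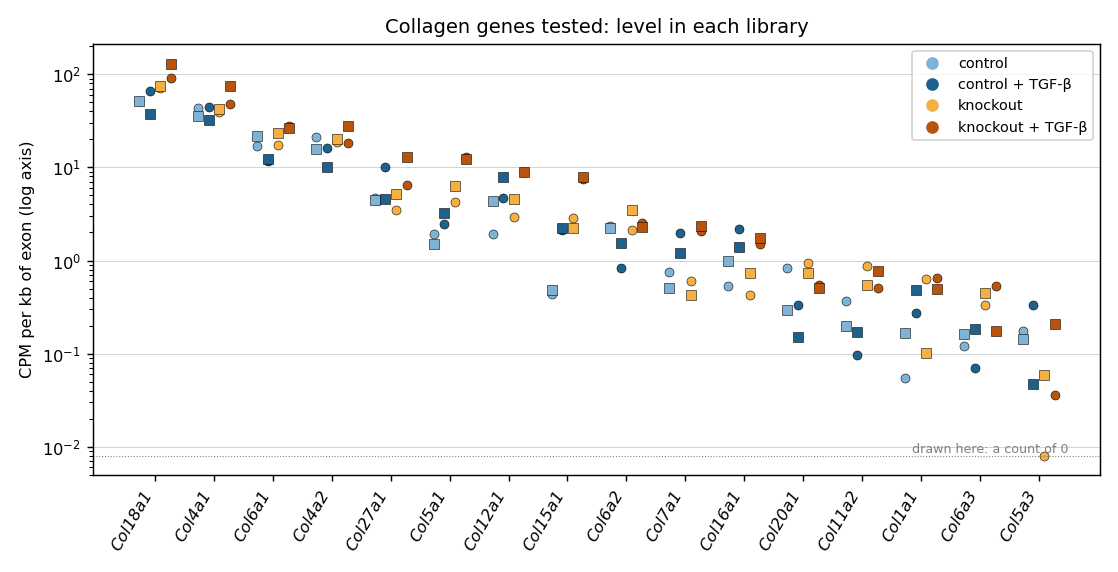
Level of the 16 tested collagen genes in each library, as CPM per kb of exon on a log axis, with genes ordered by their mean and libraries coloured by condition (circle replicate 1, square replicate 2). *Col18a1* leads at 71.9 CPM per kb on average, and the 1 library without a *Col5a3* count is drawn on the dotted line.

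The collagen genes that passed the test, in the edgeR fit reported here, were all called higher. The comparisons were made with edgeR's quasi-likelihood test: TGF-β against no TGF-β within a genotype, and KO against control cells within a treatment. A gene was called at a Benjamini-Hochberg adjusted p below 0.05 over all tested genes and a log2 fold change beyond 0.5 in size. In control cells TGF-β called 2 of the 16 collagen genes higher and 0 lower, when 9.16% of all 13028 tested genes were called (4.69% higher, 4.47% lower). In cells labelled KO, TGF-β gave 3 higher and 0 lower, against 6.82% of all genes (4.25% higher, 2.57% lower). Untreated libraries labelled KO against untreated control libraries gave 2 higher and 0 lower, against 1.83% of all genes (1.03% higher, 0.798% lower). Treated KO against treated control cells gave 5 higher and 0 lower, against 15% of all genes (8.47% higher, 6.57% lower). The absence of lower calls depended on the settings after TGF-β in control cells. There *Col6a1* was called lower in 5 of 17 alternatives (DESeq2, and edgeR with RLE scaling factors, without the filter on low counts, with a filter at a mean of 10 counts and on thinned counts), and *Col6a2* in 3 (DESeq2, and edgeR without the filter and without treated control replicate 2). The 4 comparisons share libraries, so their counts are not independent, and genes that pass the filter only through the group where they are high are favoured to differ.

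The median log2 fold change of the 16 genes was 0.13 after TGF-β in control cells and 0.67 in cells labelled KO, 0.29 between untreated libraries labelled KO and control libraries and 0.92 between treated ones, beside 0.02, 0.00, 0.02 and -0.01 over all tested genes. The libraries of the 2 groups did not overlap for 9 of the 16 genes after TGF-β in control cells (6 higher and 3 lower, against 53.7% of all genes, 27.4% higher and 26.3% lower) and for 10 in cells labelled KO (9 higher and 1 lower, against 56.6%, 28.4% higher and 28.3% lower). Between untreated genotypes this held for 6 genes (5 higher and 1 lower with the KO label, against 51.9%, 26.8% higher and 25.2% lower), and between treated genotypes for 12 (12 higher and 0 lower, against 55.8%, 28.4% higher and 27.4% lower).

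**Figure D3:**
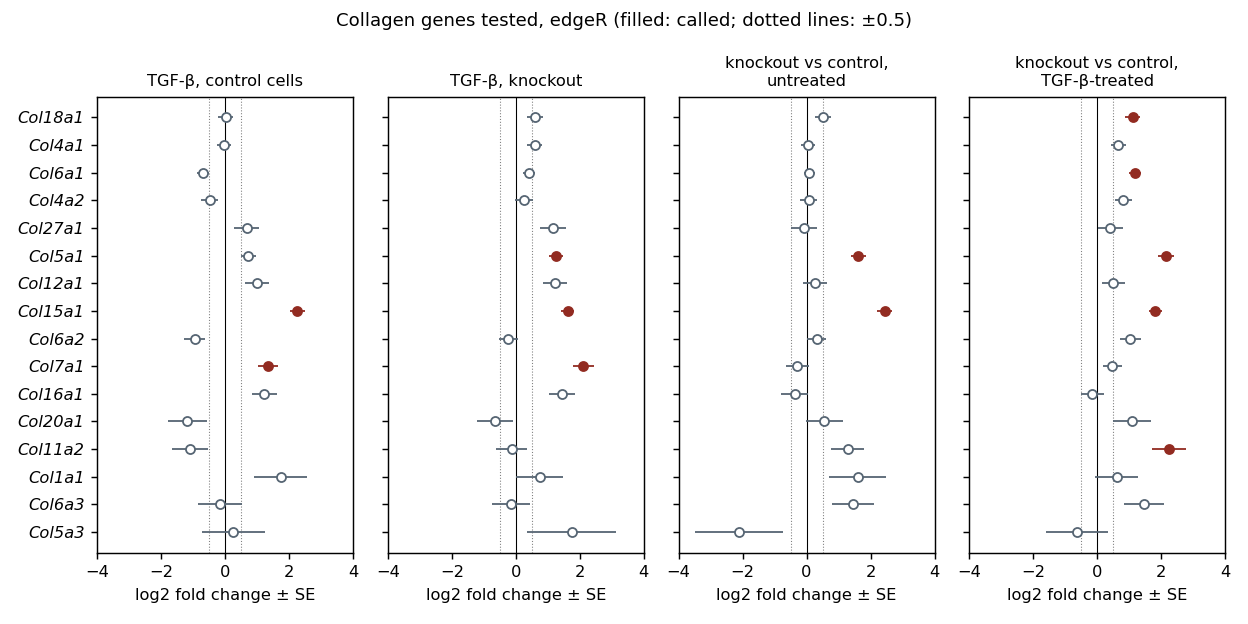
Log2 fold change ± SE of the 16 tested collagen genes in the 4 pairwise comparisons (edgeR, all 8 libraries in the fit), with called genes filled in red and dotted lines at ±0.5. Called genes number 2, 3, 2 and 5 from left to right, all to the right of 0.

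*Col15a1* (ENSMUSG00000028339.11, chr4:47221033-47326039, plus strand), which encodes the multiplexin of type XV, changed in all 4 pairwise comparisons. Its level was 2.77 and 3.05 CPM in control cells, 13.6 and 14.3 in control cells with TGF-β, 18.1 and 14.1 in the libraries labelled KO, and 48.0 and 50.3 in KO cells with TGF-β, behind which stand 23, 25, 145, 135, 82, 106, 589 and 633 counts. Control cells were lowest and KO cells with TGF-β highest. TGF-β left no overlap within a genotype, nor did the KO label within a treatment. The gene rose 2.25 ± 0.232 (log2 fold change ± SE, adjusted p = 9.33e-04) after TGF-β in control cells and 1.62 ± 0.199 (adjusted p = 0.00219) in cells labelled KO by edgeR's quasi-likelihood test. It was 2.45 ± 0.236 higher in untreated libraries labelled KO than in control libraries (edgeR adjusted p = 0.00148) and 1.82 ± 0.195 higher in treated ones (adjusted p = 0.00109). The mean level in treated KO cells was 16.9 times that in untreated control cells, the widest span of the 16 genes.

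*Col5a1* (ENSMUSG00000026837.9, chr2:27741945-27895034, plus strand), the type V chain that starts and limits fibrils, was higher with the KO label. It stood at 16.5 and 12.7 CPM in control cells, 20.7 and 27.7 in control cells with TGF-β, 35.7 and 53.7 in the libraries labelled KO and 109 and 105 in KO cells with TGF-β. The 4 conditions followed each other in this order without overlap. It was higher by 1.62 ± 0.244 on the log2 scale in untreated libraries labelled KO (edgeR adjusted p = 0.0133), by 2.15 ± 0.235 in treated KO libraries (adjusted p = 0.00112), and after TGF-β in cells labelled KO by 1.25 ± 0.229 (adjusted p = 0.0130). In control cells the change after TGF-β was 0.73 ± 0.243 with an edgeR adjusted p of 0.0935, which became a call without the filter on low counts and without treated control replicate 1. The untreated difference lost its call without control replicate 1, control replicate 2 or KO replicate 2, and that after TGF-β in cells labelled KO without KO replicate 1.

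*Col7a1* (ENSMUSG00000025650.6, chr9:108855631-108886920, plus strand), the anchoring fibril chain made by epithelia, rose after TGF-β in both genotypes. It was at 7.60 and 5.13 CPM in control cells, 20.1 and 12.2 in control cells with TGF-β, 6.17 and 4.39 in the libraries labelled KO and 20.9 and 24.0 in KO cells with TGF-β. Treated libraries were all higher than untreated ones, while the 2 untreated groups overlapped. The rise was 1.34 ± 0.323 on the log2 scale in control cells (edgeR adjusted p = 0.0339) and 2.11 ± 0.340 in cells labelled KO (adjusted p = 0.00722). The call in control cells was lost when only the 4 control libraries were fitted and when control replicate 1, control replicate 2, treated control replicate 1, KO replicate 1 or KO replicate 2 was left out, and that in cells labelled KO without KO replicate 1 or 2.

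*Col6a1* was higher in KO than in control cells after TGF-β. It was at 74.3 and 94.5 CPM in control cells and 51.1 and 54.3 with TGF-β, against 75.8 and 103 in the libraries labelled KO and 123 and 117 with TGF-β. Both treated control libraries were below both untreated ones and both treated KO libraries above theirs, without overlap. In treated cells the gene was 1.19 ± 0.186 higher on the log2 scale in KO than in control (edgeR adjusted p = 0.00505). The change after TGF-β was -0.68 ± 0.186 in control cells (edgeR adjusted p = 0.0508) and 0.42 ± 0.184 in cells labelled KO (adjusted p = 0.217), neither a call, and the first became one in the 5 of 17 alternatives named above.

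*Col18a1* was higher in treated KO than in treated control cells. Its level was 360 and 359 CPM in control cells, 460 and 266 with TGF-β, 504 and 529 in the libraries labelled KO and 645 and 915 in KO cells with TGF-β. The treated control replicates differed widely and spanned the untreated ones, and all libraries labelled KO were above all control libraries. The treated difference was 1.10 ± 0.247 on the log2 scale (edgeR adjusted p = 0.0192), and the untreated one was 0.52 ± 0.246 (adjusted p = 0.361), not a call. The treated call was lost without treated KO replicate 2 (0.77 on the log2 scale) and in a fit of the 4 treated libraries alone, whereas the untreated difference became a call in a fit of the 4 untreated libraries alone (edgeR adjusted p = 0.0284).

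*Col11a2* (ENSMUSG00000024330.9, chr17:34176382-34203630, plus strand), a fibrillar chain of the type V and XI group, was a low gene with a large difference. It had 21 and 11 counts in control cells, 7 and 11 with TGF-β, 27 and 28 in the libraries labelled KO and 42 and 66 in KO cells with TGF-β, or 2.53, 1.34, 0.656, 1.16, 5.95, 3.72, 3.42 and 5.25 CPM. All libraries labelled KO were above all control libraries. It was 2.25 ± 0.529 higher on the log2 scale in treated KO than treated control cells (edgeR adjusted p = 0.0228), a call lost without treated control replicate 1, without treated KO replicate 2 and in the fit of 4 libraries. The untreated difference of 1.29 ± 0.512 did not pass (adjusted p = 0.275).

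**Figure D4:**
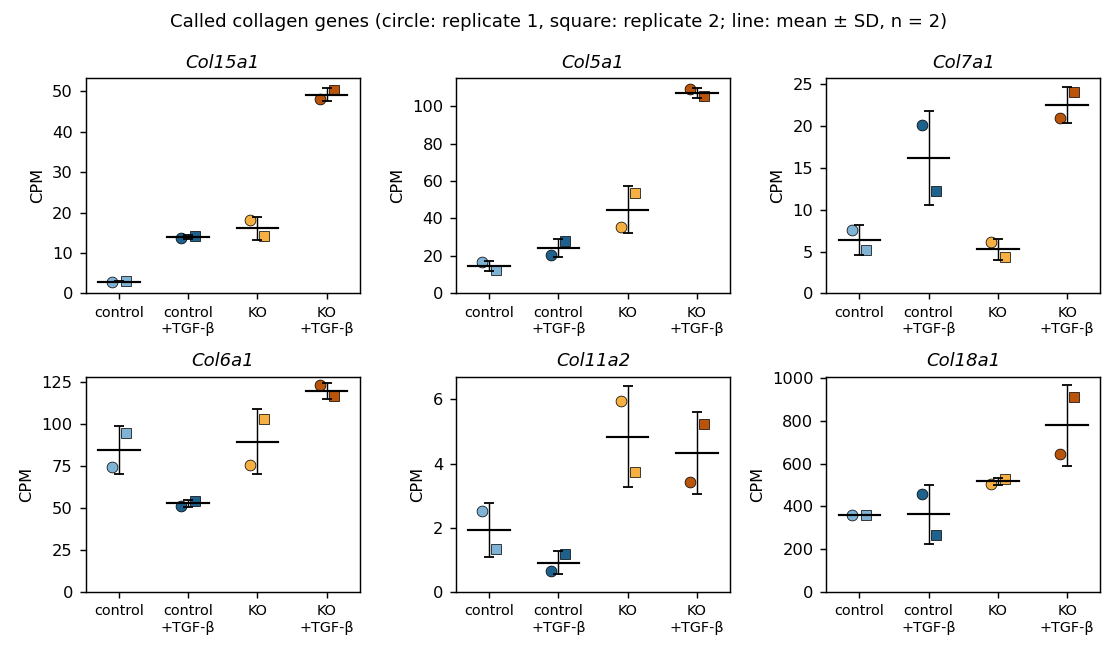
Level in CPM (vertical axes from 0) of the 6 called collagen genes in the 4 conditions, with each library as a point and the mean ± SD of n = 2 as lines. *Col15a1* moves from 2.91 CPM on average in control cells to 49.2 in KO cells with TGF-β, while *Col6a1* lies lowest in control cells with TGF-β.

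No chain of the basement membrane network was called in any comparison of the edgeR fit reported here. *Col4a1* was at 294 and 245 CPM in control cells, 305 and 222 with TGF-β, 270 and 286 in the libraries labelled KO and 324 and 510 in KO cells with TGF-β. *Col4a2* was at 141 and 103, 108 and 66.5, 123 and 133, and 120 and 186 CPM in the same order. After TGF-β in cells labelled KO, *Col4a1* was higher without overlap, by 0.59 ± 0.228 on the log2 scale (edgeR adjusted p = 0.166). This became a call without the filter on low counts. In treated cells both KO libraries were above both control libraries, by 0.66 ± 0.228 for *Col4a1* and 0.81 ± 0.272 for *Col4a2* on the log2 scale (edgeR adjusted p = 0.0799 and 0.0739), and each became a call there in 4 of 17 alternatives, DESeq2 among them. *Col27a1* was at 61.3 and 58.3 CPM in control cells, 131 and 59.9 with TGF-β, 45.0 and 67.6 in the libraries labelled KO and 85.1 and 169 in KO cells with TGF-β. Its treated replicates lay far apart in both genotypes, and its change after TGF-β in cells labelled KO was 1.17 ± 0.398 on the log2 scale (edgeR adjusted p = 0.120), a call in 5 of 17 alternatives, DESeq2 among them.

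*Col4a1* and *Col4a2* lie head to head on opposite strands of chromosome 8, their exons overlap by 22 bases, and their chains join in the same protein. The ratio of their counts within a library was 2.08 and 2.37 in control cells and 2.83 and 3.35 with TGF-β, and 2.20 and 2.16 in the libraries labelled KO and 2.70 and 2.75 with TGF-β. All 4 treated libraries lay above all 4 untreated ones. The log2 ratio was 0.40 higher with TGF-β, with p = 0.0286 by a two-sided exact permutation test of 4 libraries against 4, the smallest this test can give, and 0.0571 after Benjamini-Hochberg adjustment over the 2 chain pairs tested, so it did not pass. Within a genotype, an exact permutation test of 2 libraries against 2 cannot go below p = 0.333. The ratio was examined after the counts had been seen. For *Col6a1* over *Col6a2*, which lie on the same strand of chromosome 10, the ratio ran from 3.59 to 5.13 in untreated and from 4.28 to 7.36 in treated libraries, which overlapped (log2 difference 0.48, exact permutation p = 0.0571, adjusted 0.0571).

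**Figure D5:**
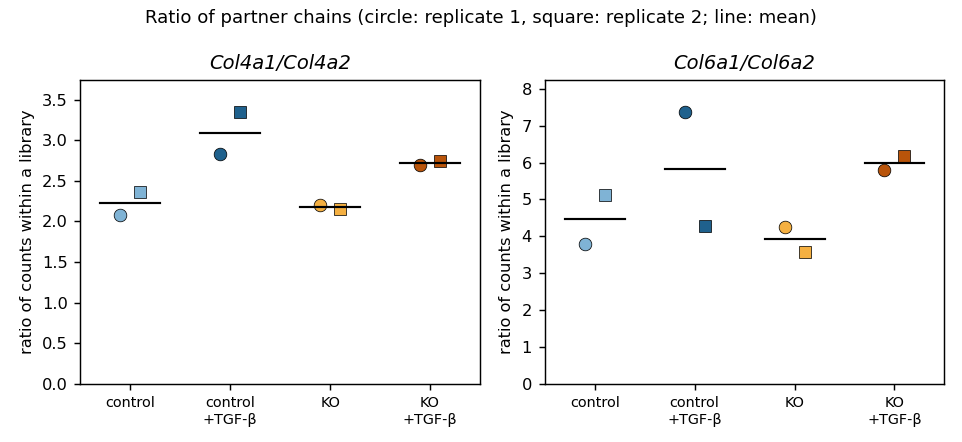
Ratio of the counts of 2 partner chains within each library (vertical axes from 0), by condition, with the mean of n = 2 as a line. The *Col4a1* over *Col4a2* ratio is between 2.08 and 2.37 in untreated and between 2.70 and 3.35 in treated libraries, and the *Col6a1* over *Col6a2* ratios overlap.

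Among the 7 other tested chains none was called. *Col12a1* (29.7 to 137 CPM) and *Col16a1* (2.87 to 14.8 CPM), FACIT collagens that coat fibrils, were higher in both treated than both untreated libraries of each genotype. *Col12a1* changed by 1.00 ± 0.369 in control and 1.23 ± 0.370 in cells labelled KO on the log2 scale (edgeR adjusted p = 0.119 and 0.0821), and *Col16a1* by 1.23 ± 0.385 and 1.45 ± 0.405 (adjusted p = 0.0780 and 0.0654). DESeq2 called both genes in both genotypes, and over all 17 alternatives *Col12a1* became a call in 3 and 6 and *Col16a1* in 2 and 5 of them. *Col6a2*, the partner of *Col6a1*, ranged from 6.93 to 28.8 CPM and changed by -0.96 ± 0.318 after TGF-β in control cells (edgeR adjusted p = 0.0921) and by 1.04 ± 0.314 between treated KO and treated control cells, without overlap (adjusted p = 0.0535), which became a call in 5 of 17 alternatives, DESeq2 and limma-voom among them. The other members were low: *Col1a1* ranged from 0.362 to 4.24 CPM, *Col6a3* from 0.843 to 6.36, *Col20a1* from 0.635 to 3.97 and *Col5a3* from 0 to 2.25. *Col1a1* was higher after TGF-β in control cells without overlap (1.74 ± 0.829 on the log2 scale, edgeR adjusted p = 0.213). This became a call only without the filter on low counts, and in cells labelled KO its groups overlapped. *Col20a1* was lower after TGF-β in cells labelled KO, without overlap.

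Whether the response to TGF-β differed between genotypes was tested as an interaction. edgeR called 0 of the 16 genes and 0% of all 13028. Of the 16, 1 had an unadjusted p under 0.05 in edgeR, *Col6a1*, with a log2 difference of the 2 responses of 1.10 ± 0.261 (edgeR adjusted p = 0.430). DESeq2 and limma-voom called 0 collagen genes, beside 0.23% and 0% of all tested genes. Thus calls after TGF-β in 1 genotype and not in the other, as for *Col5a1*, are not shown to differ between genotypes: its interaction was 0.53 ± 0.332 (edgeR adjusted p = 0.686). For *Col15a1* it was -0.63 ± 0.303 (adjusted p = 0.599) and for *Col7a1* 0.77 ± 0.467 (adjusted p = 0.675).

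Enzymes that modify collagen chains were tested as a list of 15, of which 13 passed the filter. TGF-β called 2 higher and 0 lower in each genotype, the comparison of untreated genotypes 1 higher and 0 lower, and the treated one 2 higher and 3 lower, beside 9.16%, 6.82%, 1.83% and 15% of all 13028 tested genes called in the 4 comparisons. *Colgalt1* (named *Glt25d1* in the table), which puts galactose on hydroxylysine, was the gene called higher in all 4 comparisons, at 199 and 202 CPM in control cells, 364 and 320 with TGF-β, 318 and 347 in the libraries labelled KO and 527 and 562 in KO cells with TGF-β. *Plod2*, the lysyl hydroxylase of the telopeptides, rose after TGF-β by 0.86 ± 0.170 in control and 0.76 ± 0.174 in cells labelled KO on the log2 scale (edgeR adjusted p = 0.0173 and 0.0335) but was 0.71 lower in treated KO than treated control cells (log2 fold change -0.71 ± 0.169, adjusted p = 0.0231). *P4ha1*, a prolyl 4-hydroxylase subunit, and *Crtap*, of the prolyl 3-hydroxylase complex, were also lower there (-0.86 ± 0.162 and -0.67 ± 0.196, edgeR adjusted p = 0.0102 and 0.0473), and *Plod1*, the lysyl hydroxylase of the helix, was higher (1.13 ± 0.176, adjusted p = 0.00500).

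Of 8 genes for chaperones and export, 6 were tested. *Serpinh1*, the collagen chaperone HSP47, rose after TGF-β in cells labelled KO by 0.91 ± 0.181 on the log2 scale (edgeR adjusted p = 0.0187), and in control cells its change was 0.46 ± 0.177 (adjusted p = 0.133). *Sparc*, an extracellular collagen-binding protein, was 0.54 ± 0.128 higher in treated KO than control cells (adjusted p = 0.0231). No other gene of this list was called in the 4 comparisons, in which 9.16%, 6.82%, 1.83% and 15% of all genes were.

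For processing and crosslinking, 5 of 13 listed genes passed the filter. The TGF-β comparisons called 1 higher in control and 2 in cells labelled KO, the comparisons of libraries labelled KO with control 2 higher each, and none lower, beside the same 9.16%, 6.82%, 1.83% and 15% of all genes. *Pcolce2* and *Pcolce*, both enhancers of procollagen C-proteinase, were called in different comparisons. *Pcolce2* rose after TGF-β by 1.37 ± 0.136 in control and 1.46 ± 0.136 in cells labelled KO (edgeR adjusted p = 8.54e-04 and 6.39e-04). *Pcolce* was higher in libraries labelled KO by 1.33 ± 0.156 untreated and 1.80 ± 0.158 treated (adjusted p = 0.00385 and 5.10e-04), as was the lysyl oxidase family gene *Loxl4* by 1.21 ± 0.205 and 1.58 ± 0.204 (adjusted p = 0.0208 and 0.00242). *Bmp1*, the C-proteinase itself, rose after TGF-β in cells labelled KO (0.69 ± 0.167, adjusted p = 0.0407). *Lox*, the best known collagen crosslinking enzyme, had 23 counts over all libraries and was not tested.

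Among 10 collagen receptors, 5 were tested. *Itga2* and *Itgb1*, the subunits of the α2β1 integrin, rose after TGF-β in both genotypes. *Itga2* stood at 38.7 and 51.3 CPM in control cells, 301 and 187 with TGF-β, 19.8 and 29.8 in the libraries labelled KO and 118 and 293 in KO cells with TGF-β, a rise of 2.44 ± 0.412 and 3.03 ± 0.432 on the log2 scale (edgeR adjusted p = 0.00871 and 0.00424). In treated cells the collagen receptor kinase *Ddr1* was 1.02 ± 0.213 higher in KO (adjusted p = 0.0150) and the α1 integrin subunit *Itga1* was lower (-1.17 ± 0.239, adjusted p = 0.0136). No receptor was called between the untreated groups. The 5 receptors thus gave 2 higher calls after TGF-β in each genotype and 1 higher and 1 lower between treated genotypes, beside the 9.16%, 6.82% and 15% of all genes called there and 1.83% between untreated ones.

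Markers of other cell types were read beside these results, since in bulk RNA fewer cells of a type and less RNA per cell cannot be told apart. Of 10 fibroblast and mesenchymal markers, 2 to 4 were above the floor of 3 counts in each library. Their summed level was 2628 to 2668 CPM in control cells, 2791 to 2935 with TGF-β, 3625 to 3660 in the libraries labelled KO and 3692 to 3898 in KO cells with TGF-β, higher with the KO label, and *Vim* supplied 230705 of the counts, being also expressed by NMuMG cells. Of the other 9, *Cdh2* (N-cadherin) had 8673 counts over all libraries, *Pdgfra* 35, *Pdgfrb* 10, *Dcn* 3 and *Fap* 2, and *Lum*, *Postn*, *Dpt* and *Thy1* had 0 in every library. Of the endothelial markers at most 1 of 4, of the leukocyte markers 1 of 4, of the adipocyte markers 1 of 3 and of the myoepithelial markers at most 2 of 6 passed the floor in any library. The adipocyte markers summed to 6.10 to 6.51 CPM in control cells, 7.50 to 18.2 with TGF-β, 12.2 to 12.3 in the libraries labelled KO and 18.04 to 48.41 in KO cells with TGF-β, higher with treatment in each genotype and with the KO label in untreated cells. These counts were nearly all from *Pparg*, which was not called in any comparison (log2 fold change 1.45 ± 0.491 after TGF-β in cells labelled KO and 1.38 ± 0.476 between treated genotypes, edgeR adjusted p = 0.119 and 0.0811), while *Adipoq* had 0 counts and *Plin1* had 1. The leukocyte sum was between 2.07 and 5.45 CPM and the endothelial sum at most 0.847 in any library. The myoepithelial sum was 4.88 to 5.91 CPM in control cells, 24.0 to 25.7 with TGF-β, 2.87 to 2.92 in the libraries labelled KO and 23.9 to 42.1 in KO cells with TGF-β. It was nearly all from *Krt14*, with 1412 counts over all libraries. *Trp63* had 14, *Myh11* 5, *Krt5* 4, *Oxtr* 3 and *Acta2* 2, and none of these was tested. The myoepithelial keratin *Krt14* rose after TGF-β by 2.33 ± 0.308 in control and 3.66 ± 0.347 in cells labelled KO on the log2 scale (edgeR adjusted p = 0.00304 and 6.82e-04). The 10 epithelial markers summed to 5913 to 5989 CPM in control cells, 8069 to 10974 with TGF-β, 6677 to 7011 in the libraries labelled KO and 7976 to 10433 in KO cells with TGF-β, higher in the treated libraries. The part of these markers in the collagen differences was not tested. With every library thinned to the smallest total, the 4 comparisons called 3, 3, 2 and 6 collagen genes, against 8.32%, 6.73%, 1.68% and 13.2% of all genes.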

How the data were processed

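RNA-seq of 8 NMuMG libraries, 2 per condition, was analysed. The table deposited by the authors holds raw read counts, as whole numbers, for each gene. The labels name a stranded total RNA kit and paired NextSeq reads, with HISAT2, limma and mm10 in the submitters' processing notes, whereas the study's methods name a stranded mRNA kit, single-end Novaseq reads, subjunc alignment, removal of duplicates and DESeq2. The counter and its strand setting are not given in the sources used here. Removal of duplicates would compress high counts. All 37310 gene IDs matched GENCODE vM1 (mm9), which supplied symbols, coordinates and lengths.

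Genes were filtered with filterByExpr, scaled by TMM and fitted with edgeR 4.0.16 (glmQLFit, R 4.3.3) on all 8 libraries with 1 mean per condition. A gene was called at a Benjamini-Hochberg adjusted p below 0.05 over all tested genes and an absolute log2 fold change above 0.5 (the interaction on p alone). SE is the absolute log2 fold change over the square root of F. Scripts were tested on simulated data. DESeq2 1.42.0, limma-voom (limma 3.58.1), other scaling and filters, thinned counts, a replicate block and leaving out each library were tried. Levels in every library were given for each called collagen gene and the 5 highest per kb. The members and lists were chosen with earlier results of these data known. Motif windows came from RefSeq (GRCm38.p6). A gene of the treatment check is not reported here.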

Additional observations from a re-analysis of the deposited data

Results flagged for a closer look

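*Col6a1* drew attention because its libraries moved in opposite directions: after TGF-β every control library was lower than the untreated ones and every KO library was higher than the libraries labelled KO without TGF-β. The difference between the 2 responses was tested as an interaction and was 1.10 ± 0.261 on the log2 scale (edgeR unadjusted p = 0.00205, adjusted p = 0.430), so it did not pass over all genes. It was called when no filter on low counts was applied (adjusted p = 0.00410), and over the alternatives its adjusted p ran from 0.00410 to 0.889. Of the 16 tested collagen genes this was the only one with the 2 genotypes in opposite directions without overlap.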

How the results depend on the processing

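The numbers of collagen genes called (2 after TGF-β in control cells, 3 in cells labelled KO, 2 between untreated and 5 between treated genotypes, 0 in the interaction) moved by over 1.5 times in some alternatives, and the cause was not tested except where noted. DESeq2 called 6 and 6 after TGF-β in control cells and cells labelled KO and 8 between treated genotypes (11.4%, 9.49% and 16.7% of all genes). Without the filter on low counts edgeR called 9, 8 and 10 in the same comparisons and 1 in the interaction, with more genes tested (9.88%, 8.95%, 13.8% and 1.03% of all genes). Fitting the 4 libraries of a comparison alone, with fewer samples, gave 1, 5 and 3 (3.71%, 7.13% and 3.09%) and 3 between untreated genotypes (6.12%). Leaving out 1 library at a time gave 1 to 3 after TGF-β in control cells (1.07% to 11.4% of all genes), 1 to 7 in cells labelled KO (1.04% to 10.6%), 1 to 2 between untreated (0.315% to 3.02%) and 3 to 7 between treated genotypes (3.73% to 21.4%), and 0 to 0 in the interaction (0% to 0.0461%). The 7 calls in cells labelled KO came without treated control replicate 1 or 2, each with 10.6% of all genes called, and the 1 call without KO replicate 1, with 1.04%. *Col15a1* was called in all 17 alternatives of each of the 4 pairwise comparisons, and *Col5a1* and *Col6a1* in all 17 between treated genotypes. The difference of *Col7a1* between untreated genotypes was near 0 and changed sign, from -0.55 to 0.017 on the log2 scale when libraries were left out, the positive value without control replicate 1.

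The labels number the replicates 1 and 2 in each group, but same-numbered libraries did not deviate together in every pair of groups. The correlation of deviations from the group means was 0.35 between control cells without and with TGF-β. It was 0.14 between control libraries and those labelled KO, and -0.54 to 0.015 in the other 4 pairs. With 2 libraries in a group the sign turns with the numbering. Libraries of different numbers may thus share a source of spread, which was not tested. A block on the number lines up the 2 treated groups as numbered, although their correlation was -0.54. With the replicate number as a block, 3, 4, 2, 5 and 0 collagen genes were called in the 5 comparisons (6.38%, 5.19%, 1.15%, 11.4% and 0% of all genes), and *Col12a1* became a call after TGF-β in both genotypes (edgeR adjusted p = 0.0499 in control cells and 0.0274 in cells labelled KO). Over its alternatives *Col12a1* was called in 3 of 17 in control cells (adjusted p 1.55e-05 to 0.493) and in 6 of 17 in cells labelled KO (2.77e-09 to 0.383). The 27 untested chains had at most 21 counts each in all.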

Other observations

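The median difference between replicates was larger for the 16 tested collagen genes than for all tested genes. Levels were not matched, and several of the 16 have few counts. The median absolute log2 difference between the 2 libraries of a group was 0.349 for collagen genes and 0.196 for all 13028 tested genes in control cells, 0.642 and 0.310 in control cells with TGF-β, 0.463 and 0.187 in the libraries labelled KO, and 0.250 and 0.201 in KO cells with TGF-β. In 13 of the 16 genes the difference between replicates 1 and 2 had opposite signs in treated control and treated KO cells. Over all 13028 tested genes the deviations of same-numbered libraries of these 2 groups had a correlation of -0.54. The share of all genes with opposite signs was not counted, so the 13 are not shown to be particular to collagen genes.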
